A study of Bos grunniens with 6 samples.

Results

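The regions described are the m6A peaks of yak testis that were called after sexual maturity and that no peak of the juvenile testis overlapped. They were chosen from the peak list of 30-month-old yaks (Y30M) on chromosomes 1 and 2, and every Y30M peak whose start-to-end span shared not even 1 bp with a peak of 6-month-old yaks (Y6M) was kept. The rule kept 375 of the 1284 Y30M peaks on these chromosomes (29.2%), of which 180 lay on chromosome 1 and 195 on chromosome 2. The other 909 Y30M peaks overlapped a Y6M peak, and 363 of the 1289 Y6M peaks overlapped no Y30M peak. Because the presence and absence of a called peak defined the set, its size is a description and carries no test.

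The study compared the testis of 3 healthy male yaks (Bos grunniens) aged 6 months, before sexual maturity, with that of 3 aged 30 months, after it. No treatment, transgene or line was involved, and each animal gave 1 sample. Polyadenylated RNA was fragmented, part of it was precipitated with an antibody against m6A (IP), and part was sequenced directly (input), so that the 6 yaks gave 12 libraries. Peaks were called once per group over its 3 yaks with the input as control, and consequently no peak value has a replicate error. Expression was measured in the 6 input libraries as FPKM, the fragments of a gene scaled to transcript length and to library size.

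N6-methyladenosine (m6A) is a methyl mark on adenosines inside messenger RNA. It is set by a methyltransferase complex around METTL3 and METTL14, removed by the demethylases FTO and ALKBH5, and bound by reader proteins such as the YTH family. In the testis, the mark and its enzymes take part in the renewal of spermatogonia, in meiosis and in the shaping of sperm. A mature testis holds many spermatocytes and spermatids, which are scarce or absent before puberty, and RNA of sperm tail and sperm head genes comes mainly from these cells.

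The deposited values give for each peak its span and the adenosines inside it. Each adenosine has a combined score between 0 and 1, by which it is classed as an m6A site or not. An adenosine counted as a predicted site from a score of 0.528 upwards and as a site of very high confidence from 0.672. At the same position the score mostly did not differ between the ages. Of 115551 adenosines scored at the same position in both lists, 97.5% had an identical score, and the largest difference was 0.181. The length of a peak is its span from start to end, which in compared rows with several exon blocks includes the gaps between them. A second table lists peaks that were compared between the groups, with their exon blocks, their gene and a fold enrichment of IP over input taken over both groups. The relative depth of the input libraries, read from the steps between low FPKM values with the library of Y30M replicate 1 set to 1, was 0.752 to 1.03 in Y6M and 1.00 to 1.07 in Y30M, and Y6M replicate 3 was the shallowest.

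Most of the peaks called only at 30 months were short. Their median length was 450 bp (quartiles 200 and 4460 bp), against 1309 bp for Y30M peaks that overlapped a Y6M peak and 1353 bp for peaks called only at 6 months. Peaks under 500 bp numbered 193 (51.5%) among the Y30M-only peaks, compared with 31.4% of the overlapping Y30M peaks and 35.8% of the Y6M-only peaks. The excess lay in the shortest class: 150 Y30M-only peaks (40.0%) spanned less than 300 bp, against 18.3% of the overlapping peaks. Peaks were shorter on chromosome 2, where the median length was 299 bp, than on chromosome 1, where it was 933 bp.

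A small number of very long peaks held most of the covered length. The mean length was 6359 bp (SD over peaks 20217 bp) and the range ran from 141 to 306640 bp. The 57 peaks of at least 10 kb (15.2%) made up 80.1% of the summed 2.38 Mb. The longest peak, chr2:55065918-55372557 (LU_Bosgru_v3.0), lay on PLCL1, the gene of a catalytically inactive phospholipase C-like protein, and held 1357 predicted sites among 6918 scored adenosines. The next was chr1:85583821-85691111, 107291 bp long, which the study's own annotation places on LPP, the gene of a focal adhesion protein, with 428 predicted sites among 2308 adenosines. The third, chr1:10286428-10383240, lay on ROBO1, which encodes a receptor of SLIT guidance proteins, and held 266 predicted sites among 1833.

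**Figure D1:**
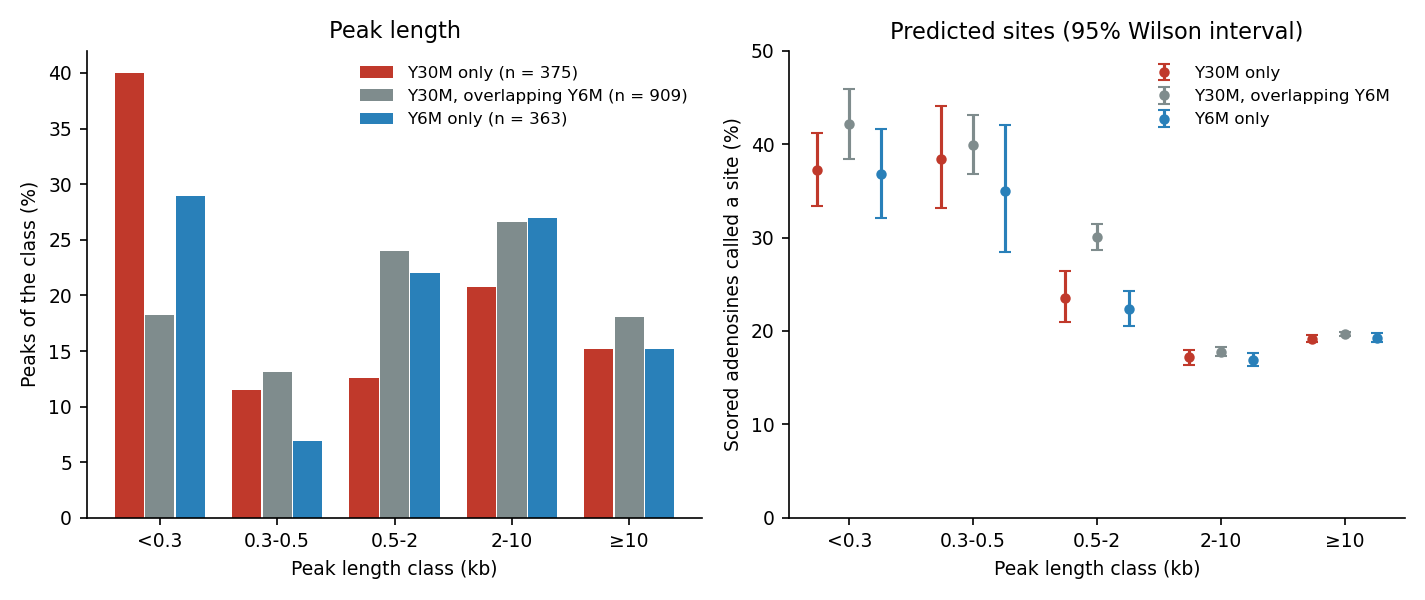
Left, share of peaks (%) in 5 length classes (kb) for the 375 Y30M-only peaks, the 909 Y30M peaks overlapping a Y6M peak and the 363 Y6M-only peaks. Right, share of scored adenosines called a site (%) in the same classes, with 95% Wilson intervals that cover counting only. The Y30M-only bar stands highest in the shortest class (40.0%), and the predicted share is lower in long than in short peaks in all 3 sets.

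In the Y30M-only peaks 50969 adenosines were scored, of which 9806 (19.2%, 95% Wilson interval 18.9 to 19.6%) were predicted sites. The overlapping Y30M peaks had 19.9% (19.7 to 20.1%) and the Y6M-only peaks 19.1% (18.7 to 19.5%). The intervals cover counting only, since adenosines of 1 peak are neighbours and not replicates. The density of scored adenosines was also close in the 3 sets, with 21.4 per kb in the Y30M-only peaks, 21.2 in the overlapping and 21.1 in the Y6M-only peaks. The 3 sets thus lay close to each other in the density of candidate adenosines and in the overall predicted share.

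Within a length class the predicted share was lower in the Y30M-only than in the overlapping Y30M peaks in each of the 5 classes, by amounts that the counting intervals separated in the middle class alone. Among peaks of 500 to 2000 bp, 222 of 942 adenosines (23.6%, 21.0 to 26.4%) in 47 Y30M-only peaks were predicted sites, against 30.1% (28.7 to 31.5%) in the overlapping peaks. The Y6M-only peaks of that class stood at 22.4% (20.5 to 24.3%), next to the Y30M-only peaks. Under 300 bp the values were 37.2% (33.4 to 41.2%) and 42.1% (38.4 to 45.9%), and at 10 kb or more they were 19.2% (18.8 to 19.5%) and 19.7% (19.4 to 19.9%). Peaks found at 1 age, whichever it was, therefore had similar shares in that class, and no difference in any class could be tested between yaks.

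The strongest predicted sites were a smaller share in peaks called at 1 age alone, whichever it was, than in the overlapping Y30M peaks. They were not counted by length class. Sites of very high confidence numbered 956 (1.88% of scored adenosines), against 2.20% in the overlapping Y30M peaks and 1.76% in the Y6M-only peaks. At least 1 such site was present in 154 peaks (41.1%), compared with 50.6% of the overlapping Y30M peaks and 41.3% of the Y6M-only peaks. Conversely, 54 peaks (14.4%) held no predicted site at all, against 9.35% and 13.5%. All but 2 of these 54 peaks were under 500 bp long, and 22 of the 375 peaks contained a single scored adenosine. The median of the highest score in a peak was 0.649, beside 0.674 and 0.651.

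**Figure D2:**
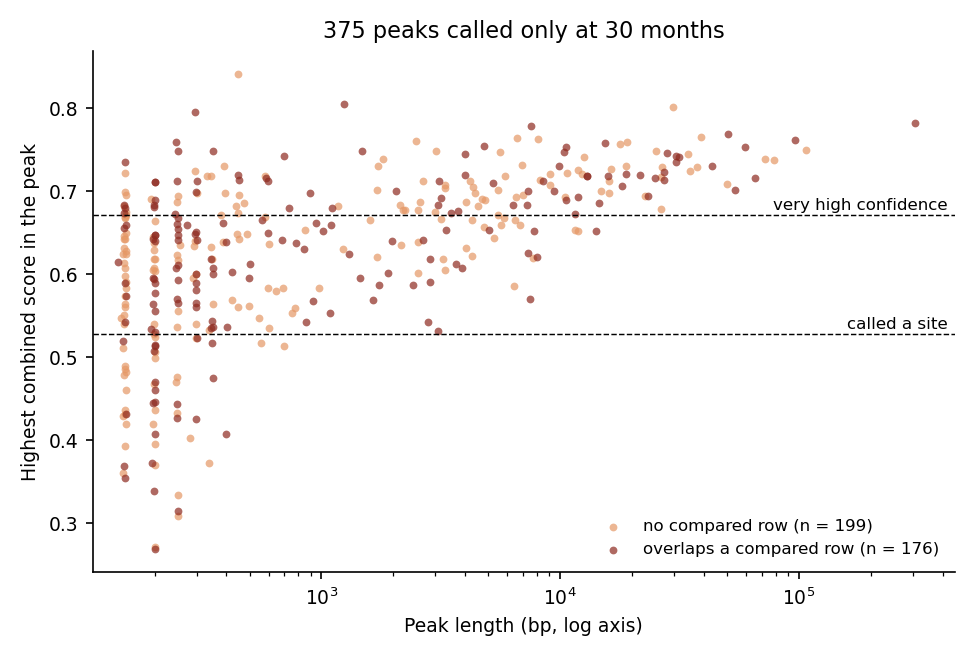
Length (bp, log axis) and highest combined score of each of the 375 Y30M-only peaks, coloured by whether a compared row overlaps the peak. Dashed lines mark the lowest scores of a predicted site (0.528) and of very high confidence (0.672); no peak of at least 2000 bp lies below the first line, and the highest point is 0.841.

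The highest score, 0.841, belonged to the adenosine at chr2:125537668 in the 445 bp peak chr2:125537468-125537912, which had 4 scored adenosines and no compared row, so that no gene could be given. It was followed by 0.805 at chr2:32066046 in a peak of ENSBGRG00000019378, a gene without a symbol, and by 0.802 at chr1:63141040 in a 29573 bp peak without a gene. A score of 0.796 stood at chr2:17696302 in a peak of ENSBGRG00000016893. The long PLCL1 peak came next with 0.782 at chr2:55188874, a position outside the exon blocks of its compared rows. The leading scores were thus spread over peaks from 295 bp to 306640 bp in length.

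Predicted sites were densest in compact peaks. Of peaks with at least 10 scored adenosines, chr1:141682365-141683092 on ENSBGRG00000001595 had the highest share, with 10 of 12 adenosines predicted (83.3%). A 450 bp peak without a gene, chr1:87060792-87061241, had 10 of 14 (71.4%). The peak chr1:162244616-162244916 on DOP1B, which encodes a protein of endosomal traffic, had 7 of 11 (63.6%). The peak chr1:158608356-158608604 in the 3' UTR of SLC19A1, the gene of the reduced folate carrier, had 6 of 10 (60.0%). Shares were lower in some long peaks, such as 14.5% in the long ROBO1 peak and 11.7% in the peak chr1:22428134-22449750 on NCAM2.

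Exon blocks were known for the peaks that overlapped a compared row. In these Y30M-only peaks 830 adenosines lay inside an exon block and 26868 (97.0%) outside the blocks, whether between them or beyond the compared row. Of the former, 279 (33.6%) were predicted sites, of the latter 17.9%. In the overlapping Y30M peaks the shares were 38.4% inside and 18.9% outside the blocks, and 94.6% of their adenosines lay outside. Most scored adenosines of these peaks thus lay outside the exon blocks known here, and no annotation was used that says what sequence they lie in.

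The distance to the nearest Y6M peak told whether a Y30M-only peak was a neighbour of an old peak or stood alone. The median distance was 49269 bp (quartiles 14829 and 143990 bp), with a least of 47 bp and a greatest of 4116690 bp. Within 1 kb of a Y6M peak lay 28 peaks (7.47%), within 10 kb 75 (20.0%), and beyond 100 kb 120 (32.0%). The nearest Y30M-only peaks were 47, 48 and 49 bp away, and the Y30M peaks that just failed to qualify overlapped a Y6M peak by 1, 1 and 49 bp. The peak that was 48 bp away lay on TIAM1, a guanine nucleotide exchange factor of RAC1, beside a long peak that both ages shared. The most distant, chr1:22428134-22449750, lay on NCAM2, a cell adhesion gene.

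**Figure D3:**
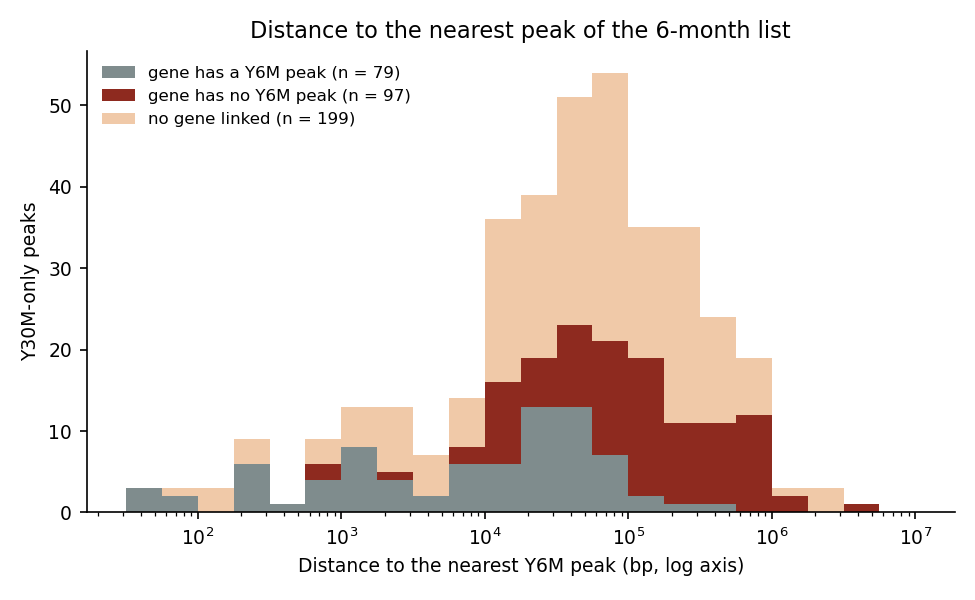
Number of Y30M-only peaks by distance to the nearest Y6M peak (bp, log axis). Bars are stacked by whether the linked gene has a Y6M peak on a compared row (79), has none there (97) or no gene could be linked (199). The bulk lies between 10 kb and 1 Mb, and nearly all peaks within 1 kb belong to genes with a Y6M peak or to no linked gene.

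Along the chromosomes the Y30M-only peaks were unevenly placed. In windows of 10 Mb with at least 20 Y30M peaks, their share of the Y30M peaks ran from 4.88% (2 of 41, chromosome 1 at 160 to 170 Mb) to 45.5% (15 of 33, chromosome 2 at 130 to 140 Mb). The largest number, 31 of 132 peaks (23.5%), stood at 10 to 20 Mb of chromosome 2, which also held the most Y30M peaks.

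A gene could be given to 176 of the 375 peaks (46.9%), those that overlapped a row of the compared peaks. Of the overlapping Y30M peaks 91.6% had such a row, and of the Y6M-only peaks 57.0%. The start and end were equal to a compared row in 70 peaks (18.7%), against 34.1% of the overlapping Y30M peaks. The 199 peaks without a row had a median length of 451 bp, close to the 448 bp of those with one, and 20.2% of their adenosines were predicted sites against 18.4%. Among rows that touched a Y30M-only peak and no Y6M peak, the median fold enrichment of IP over input was 1.96 (quartiles 1.67 and 2.54) and 84 of 179 (46.9%) had an enrichment false discovery rate (FDR) of at most 0.05. Rows on overlapping Y30M peaks had a median of 2.64 (2.11 and 3.27), and 76.9% of 827 passed. These enrichments take both ages together and are not values of Y30M alone. Why they differed between these sets of rows was not tested.

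The 176 peaks reached 142 genes, of which 140 had FPKM values and 70 had a symbol. Here and below, a gene had a Y6M peak only where one overlapped a compared row of that gene. Of the Y6M peaks, 156 called only at 6 months and 74 shared ones overlapped no compared row and were given to no gene. In 97 peaks (55.1%), on 75 genes, the gene had no Y6M peak in this sense. The other 79 peaks, on 67 genes, were added to genes that already had a Y6M peak: 40 lay upstream of all Y6M peaks of the gene along its strand, 31 downstream and 8 between them. More than 1 Y30M-only peak was found on 23 genes, and the most were 4, on POLQ and on ENSBGRG00000009960. POLQ, the gene of DNA polymerase theta, which joins broken DNA ends, was singled out after its values were seen: its peaks at chr1:71428679-71429362, 71479364-71480211, 71480561-71480959 and 71481707-71481857 held 3, 6, 0 and 0 predicted sites. The gene had no Y6M peak, and its FPKM was 0.0760, 0.167 and 0.389 in the Y6M libraries and 1.44, 0.702 and 2.01 in the Y30M libraries.

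The genes with a Y30M-only peak were weakly expressed in juvenile testis more often than genes with overlapping peaks, at a share below that of all genes tested. A mean FPKM under 1 in Y6M was found in 44 of the 140 genes (31.4%, 95% Wilson interval 24.3 to 39.5%), and in 16 (11.4%) in Y30M. Over all 19477 genes tested, which include genes without any peak, the shares were 36.3% and 30.3%. Genes with an overlapping Y30M peak and no Y30M-only peak were under 1 in Y6M in 10 of 482 cases (2.07%). The mirror image held for genes with a Y6M-only peak, of which 23 of 141 (16.3%) were under 1 in Y30M and 3 (2.13%) in Y6M. The low genes were mainly those without a Y6M peak: 38 of 74 (51.4%) were under 1 in Y6M, compared with 6 of 66 (9.09%) of the genes with a Y6M peak. A peak can be called only where there are reads of the input and the IP, and the part of expression in the absence of a Y6M peak was not tested.

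**Figure D4:**
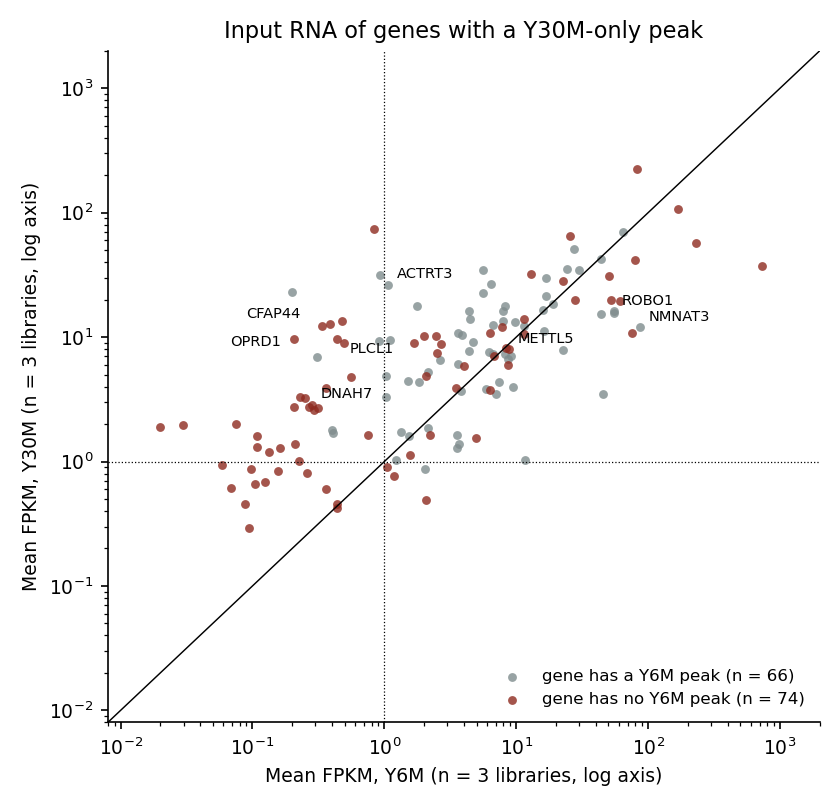
Mean input FPKM of the 140 genes with a Y30M-only peak in Y6M (x) and Y30M (y), both on log axes, with 3 libraries each; the diagonal marks equal values and dotted lines mark an FPKM of 1. Of 74 genes without a Y6M peak, 38 lie left of the vertical line, against 6 of 66 genes with one.

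Expression was compared between the groups with limma on log2(FPKM + 1) over 19477 genes, and a gene was called where the unadjusted p was at most 0.05 and the groups differed at least 1.5-fold. On this scale changes of weakly expressed genes are understated. Of all genes, 46.3% were called, 27.3% as higher and 19.0% as lower in Y30M. Of the 140 genes with a Y30M-only peak, 86 (61.4%) were called, 65 (46.4%) as higher and 21 (15.0%) as lower. A Benjamini-Hochberg adjusted p of at most 0.05 was also found for 73 of these 86, against 8016 of the 9011 called among all genes. The 3 Y6M and the 3 Y30M values did not overlap in 91 genes (65.0%), against 54.1% of all genes. The median log2 fold change was 0.61, beside 0.04 over all genes, -0.12 for genes with overlapping Y30M peaks and -0.59 for genes with Y6M-only peaks. Because peaks and expression come from the same animals and the input reads served in both, these counts describe the genes and are no independent test. With 3 yaks a group, the p-values measure the spread between these animals, and the smallest p that an exact permutation of 3 against 3 samples can give, two-sided, is 0.1. In bulk tissue, fewer cells of a type and less RNA per cell cannot be told apart.

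Among linked genes with a symbol, those with the largest rises included several of the sperm head and the sperm tail. Genes without a symbol rose more, namely ENSBGRG00000014908, ENSBGRG00000018504 and ENSBGRG00000014050 by log2 fold changes of 5.30, 4.30 and 4.05. ACTRT3 (ENSBGRG00000007581), an actin-related protein of the sperm head, had an FPKM of 1.25, 0.922 and 1.05 in the Y6M libraries and 22.5, 28.5 and 28.3 in the Y30M libraries. Every Y30M value lay far above every Y6M value, and the log2 fold change was 3.72 (SE 0.14, limma adjusted p = 6.40e-05). Its Y30M-only peak, chr1:106130666-106130815, was 150 bp long with a single scored adenosine, at chr1:106130763 with a score of 0.543. A Y6M-only peak of 200 bp stood 2222 bp away on the same gene, so this gene carried a peak at both ages, at different places.

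CFAP44 (ENSBGRG00000001051), which encodes a protein of the flagellar axoneme, had an FPKM of 0.169, 0.552 and 0.281 in Y6M and of 8.16, 8.25 and 20.3 in Y30M. The groups were apart, with Y30M replicate 3 well above the other mature libraries, and the log2 fold change was 3.20 (SE 0.37, limma adjusted p = 0.00159). Peaks of 54215 and 3750 bp lay on it, with 156 and 4 predicted sites, and no Y6M peak was linked to it. DNAH7 (ENSBGRG00000001376), an inner arm dynein heavy chain, rose from 0.157, 0.121 and 0.575 to 1.88, 2.62 and 4.08 FPKM (log2 fold change 1.57, SE 0.26, limma adjusted p = 0.00550). It carried 3 Y30M-only peaks and no Y6M peak, and the largest of them, 25008 bp long, had 123 predicted sites among 454 adenosines (27.1%). In this peak and in both CFAP44 peaks, the highest-scored predicted sites lay outside the exon blocks of the compared rows.

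TTC30B (ENSBGRG00000000256), a subunit of the intraflagellar transport machinery, had an FPKM of 0.982, 1.09 and 0.677 in Y6M and of 9.13, 8.34 and 10.6 in Y30M. It rose by a log2 fold change of 2.43 (SE 0.14, limma adjusted p = 0.000175), while its Y30M-only peak of 300 bp held 3 adenosines and no predicted site. STK36 (ENSBGRG00000000918), a kinase needed for the central pair of motile cilia, had 5.27, 5.73 and 5.74 FPKM in Y6M and 31.6, 40.0 and 31.8 in Y30M (log2 fold change 2.42, SE 0.13, limma adjusted p = 0.000142). Both genes also had a peak that the ages shared. In STK36 one Y30M-only peak, of 250 bp in the 3' UTR, lay downstream of the shared peak and the other, of 922 bp, upstream.

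Other genes of the 8 largest rises with a symbol were in none of the gene lists used here. OPRD1 (ENSBGRG00000015656), the delta opioid receptor, had an FPKM of 0.143, 0.105 and 0.375 in Y6M and of 13.0, 10.4 and 5.37 in Y30M. All mature libraries exceeded all juvenile ones (log2 fold change 3.06, SE 0.31, limma adjusted p = 0.00104), and the 246 bp peak had 2 predicted sites among 3 adenosines, scored 0.608 and 0.569. PLCL1 (ENSBGRG00000000210) rose from 0.235, 0.439 and 0.639 to 6.68, 7.92 and 14.6 FPKM (log2 fold change 2.84, SE 0.30, limma adjusted p = 0.00112). No Y6M peak was linked to it, and its Y30M-only peaks of 50354 and 306640 bp held 16 and 139 sites of very high confidence. The highest-scored of these sites lay outside the exon blocks of the compared rows.

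TIAM1 (ENSBGRG00000000112) had 1.68, 2.34 and 1.33 FPKM in Y6M and 22.0, 14.8 and 16.4 in Y30M (log2 fold change 2.75, SE 0.21, limma adjusted p = 0.000372). Its Y30M-only peaks, 299 and 200 bp long with 3 scored adenosines and 1, lay downstream of a peak of 20017 bp that overlapped a Y6M peak. GRHL3 (ENSBGRG00000006200), a transcription factor of epithelial barriers, rose from 0.221, 0.445 and 0.267 to 8.42, 6.28 and 6.22 FPKM (log2 fold change 2.60, SE 0.15, limma adjusted p = 0.000180). Both of its Y30M-only peaks, of 200 and 149 bp, lay upstream of a peak that the ages shared.

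**Figure D5:**
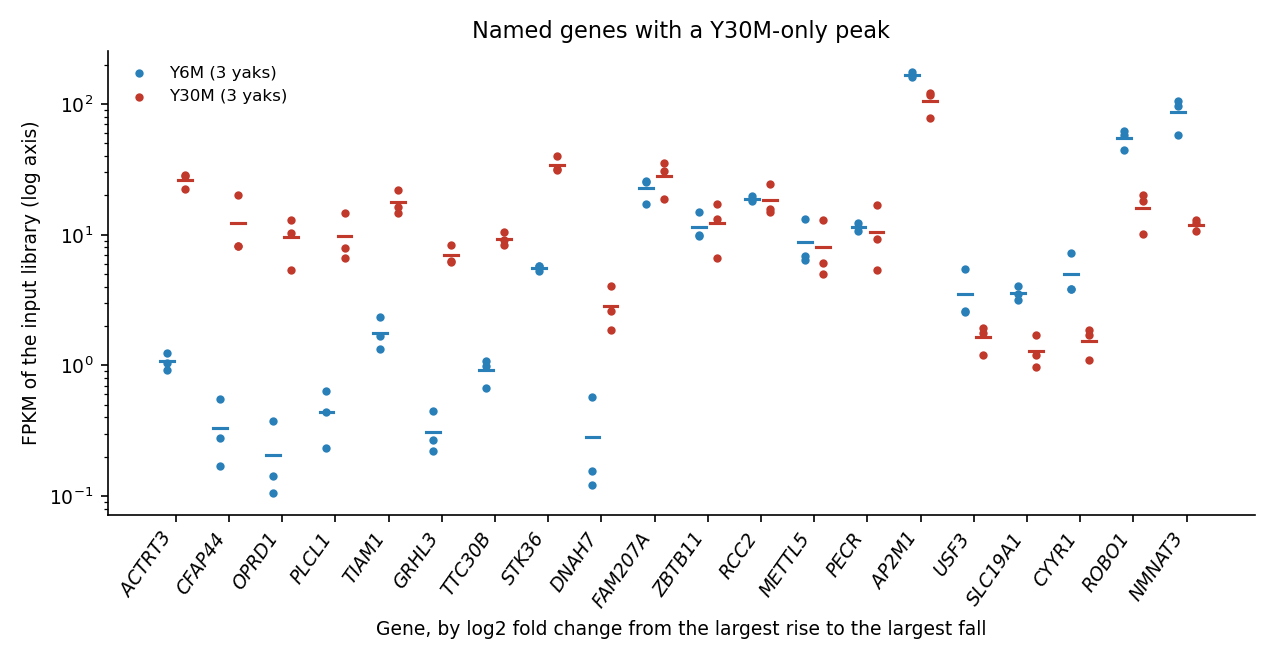
Input FPKM (log axis) of 20 named genes with a Y30M-only peak, ordered by log2 fold change; each point is 1 yak and each bar a group mean. The groups do not overlap in the 9 genes on the left and the 6 on the right, and they overlap in the 5 between.

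Among genes with a Y30M-only peak that fell, the largest fall with a symbol was that of NMNAT3 (ENSBGRG00000001428), an enzyme of NAD synthesis in mitochondria. The Y6M libraries had 105.6, 96.7 and 58.0 FPKM and the Y30M libraries 12.9, 10.6 and 12.4 (log2 fold change -2.72, SE 0.25, limma adjusted p = 0.000722). The Y30M-only peak of 7229 bp ended 296 bp before a Y6M peak of the gene, and Y6M peaks of 200, 1710 and 2570 bp were called on it. ROBO1 (ENSBGRG00000000014) fell from 58.2, 44.3 and 62.0 to 20.2, 10.1 and 18.2 FPKM (log2 fold change -1.74, SE 0.29, limma adjusted p = 0.00579). Its Y30M-only peaks of 96813 and 30705 bp lay upstream of 3 peaks that the ages shared.

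CYYR1 (ENSBGRG00000000067), of which little is known, had 3.84, 3.88 and 7.20 FPKM in Y6M and 1.70, 1.10 and 1.85 in Y30M (log2 fold change -1.19, SE 0.26, limma adjusted p = 0.0148), with a 3339 bp peak in the 3' UTR and no Y6M peak. SLC19A1 (ENSBGRG00000000631) had 4.04, 3.51 and 3.17 FPKM in Y6M and 1.72, 0.965 and 1.19 in Y30M (log2 fold change -1.01, SE 0.16, limma adjusted p = 0.00471). In CYYR1 and SLC19A1 the Y30M-only peak was thus called in the group with the lower RNA level, and the reason was not tested. SLC19A1 also had a peak that the ages shared. USF3 (ENSBGRG00000001394), a basic helix-loop-helix factor, and AP2M1 (ENSBGRG00000000714), the medium subunit of the clathrin adaptor AP-2, had smaller log2 fold changes of -0.74 (SE 0.28, limma adjusted p = 0.0869) and -0.68 (SE 0.20, limma adjusted p = 0.0375). USF3, which also had peaks that the ages shared, passed the call at the limma unadjusted p of 0.0423 alone. Leaving out any of 4 libraries ended its call. The AP2M1 call was lost without Y30M replicate 2, where its log2 fold change was -0.48. When every library was scaled to an equal FPKM total, both calls were lost, at -0.50 for AP2M1 (limma unadjusted p = 0.0531) and -0.67 for USF3 (limma unadjusted p = 0.0660).

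Peaks called only at 30 months also lay on genes whose RNA level showed no called difference. Among those with the smallest changes at a mean FPKM of at least 10 were ZBTB11, a zinc finger transcription factor, RCC2, a regulator of chromosome condensation, PECR, a peroxisomal enoyl-CoA reductase, and FAM207A, a ribosome biogenesis factor. RCC2 (ENSBGRG00000003136) had 19.8, 18.3 and 18.6 FPKM in Y6M and 24.3, 15.7 and 14.9 in Y30M, so the groups overlapped (log2 fold change -0.08, SE 0.20, limma adjusted p = 0.818). Its Y30M-only peaks of 299 bp each, chr2:1065767-1066065 and chr2:1066264-1066562, lay between peaks that the ages shared, and the first had 4 predicted sites among 7 adenosines with a top score of 0.699. The compared rows on them had fold enrichments of 1.46 and 1.35, both with an FDR of 2.00e-16. ZBTB11 (ENSBGRG00000003762) had 9.83, 9.90 and 14.8 FPKM in Y6M and 13.3, 6.62 and 17.2 in Y30M (log2 fold change 0.03, SE 0.36, limma adjusted p = 0.964), with Y30M-only peaks of 1012 and 248 bp upstream of its shared peaks.

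METTL5 (ENSBGRG00000006819), the methyltransferase that sets m6A on 18S ribosomal RNA, was the one linked gene with a symbol among the m6A genes listed, of which 1 of 12 writers, 0 of 2 erasers and 3 of 12 readers could be measured under a symbol. The Y6M libraries had 6.36, 6.93 and 13.3 FPKM and the Y30M libraries 6.09, 4.98 and 13.0, and the groups overlapped (log2 fold change -0.16, SE 0.42, limma adjusted p = 0.812). Replicate 3 was the highest library at both ages. The peak chr2:120958871-120959219, 349 bp long, had 1 predicted site of 2 adenosines, at chr2:120959062 with a score of 0.544, and its compared row had a fold enrichment of 1.95 with an FDR of 9.12e-09. No Y6M peak was linked to the gene.

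The enrichment FDR of the compared rows differed with the expression of the gene. Every row linked to the 8 genes with a symbol and the largest rises had an FDR of 1, as had the DNAH7 rows, although their fold enrichments ran from 1.45 (STK36) to 4.10 (TIAM1). Over all linked rows without a Y6M peak, the FDR was at most 0.05 in 31 of 87 rows (35.6%) of genes called higher in Y30M, in 9 of 22 (40.9%) of genes called lower and in 43 of 61 (70.5%) of genes not called. Split by juvenile expression, 14 of 64 rows (21.9%) of genes with a mean Y6M FPKM under 1 passed, against 69 of 106 (65.1%) of the rest, and yet the median fold enrichment was 2.23 in the former and 1.87 in the latter. The fold and its FDR therefore ordered these peaks differently, and the number of reads behind a row is unknown.

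The wider gene lists give expression over all chromosomes, and a link with these peaks was not tested. Y30M-only peaks were sought only on the chromosomes of the selection rule, so a listed gene elsewhere could not have such a peak. The counts of listed genes with a Y30M-only peak therefore cannot compare the lists. Of cilium and axoneme genes, 22 were measured under a symbol, 19 were called higher in Y30M and none lower (27.3% and 19.0% of all genes), with a median log2 fold change of 2.64, and 4 of them (CFAP44, DNAH7, STK36 and TTC30B) had a Y30M-only peak. All 7 measured spermatid and sperm genes were called higher (median log2 fold change 6.18), and ACTRT3 alone among them had a Y30M-only peak. Of 9 meiotic genes 5 were called higher and none lower. None was linked to a Y30M-only peak. For BRCA1, BLM and TOPAZ1, which the paper places on other chromosomes, the selection rule allowed no such peak. Of the m6A machinery, IGF2BP2 was called lower and IGF2BP3 higher, while no eraser and no spermatogonia marker had a symbol here. YTHDF2 was not called, because its rise fell short of the fold threshold. It had 17.2, 18.8 and 21.4 FPKM in Y6M and 29.1, 23.2 and 28.3 in Y30M. These values did not overlap (log2 fold change 0.47, SE 0.14, limma adjusted p = 0.0429). In the paper's quantitative PCR, all readers tested and the erasers FTO and ALKBH5 were higher after maturity.

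Of the markers of other testis cells, most were called lower in Y30M, as were 19.0% of all genes. The call was made for 4 of 6 Sertoli cell markers, 2 of 2 Leydig cell genes, 5 of 6 peritubular and stromal markers and 3 of 4 endothelial and blood cell markers, and none was called higher. TJP1, GJA1, ADAMTS5 and EMCN were not called. The summed FPKM of the Sertoli markers lay between 275.0 and 359.5 in the Y6M libraries and between 77.0 and 139.4 in the Y30M libraries, that of the Leydig genes from 37.5 to 73.2 and from 2.18 to 6.84, and that of the stromal markers from 580.6 to 655.4 and from 95.4 to 146.2. The endothelial and blood markers summed to 18.8 to 29.4 and 5.41 to 8.64. Only 2 genes, LHCGR and IGF1, made up the Leydig sum, and in Y6M most of it came from LHCGR (39.7, 34.4 and 67.3 FPKM). LHCGR had 1.67, 1.44 and 5.37 FPKM in Y30M. Since FPKM is scaled to library size, such a sum is no count of cells. In the paper's tissue sections, interstitial cells were more numerous at 30 months than at 6 months. The spermatid genes summed to 14.9 to 17.3 FPKM before and 961.6 to 2722 FPKM after maturity, the cilium genes to 62.0 to 85.4 and 1055 to 1838, and the meiotic genes to 20.3 to 55.2 and 47.7 to 163.4. None of these markers was at 0 in any library. The part of the cell make-up in the presence of Y30M-only peaks was not tested, and age and make-up cannot be told apart in these samples. Symbols were known mainly for genes that the study itself listed, so the lists are not a neutral sample of their pathways.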

How the data were processed

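Testis RNA of 6 yaks gave 6 IP and 6 input libraries. The authors trimmed reads (Trimmomatic), aligned them to LU_Bosgru_v3.0 (HISAT2) and called peaks with MeTDiff per group with the input as control. The deposited combined score of each adenosine, which equals 0.6 of a binary plus 0.4 of a spectrum score, comes from a tool not given in the sources used here. The deposited fold enrichment and the log10 FDR beside it take both groups together. The deposited FPKM values are per gene and input library. The table of compared peaks also holds the authors' own group comparison (log2 fold changes, p-values, FDR), which was not used. Positions in the site lists count from 0, since no scored adenosine lies nearer than 2 bases to a listed start, and were printed counting from 1.

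Overlaps of at least 1 bp, genes and shares were computed in Python 3.11.15 (pandas 2.3.3, scipy 1.17.1), and FPKM values above 0 in at least 1 library were tested with limma 3.58.1 (R 4.3.3) on log2(FPKM + 1), Y30M against Y6M, without a block, and tested on simulated data first. limma is not a count test, and depth is known only in relative terms. The members and gene lists were chosen with earlier results of these data known. Named genes were, among linked genes with a symbol, the 8 largest rises and 6 largest falls among called genes with separate groups, the 5 smallest changes at a mean FPKM of at least 10, and all genes in a list; 1 gene so named is not reported here. Named peaks were those with the most sites, the highest shares, the highest scores, and extreme lengths and distances. Symbols came from symbol columns of the study's supplementary tables (2139 IDs, and 8 with conflicting symbols stayed unnamed). No gene ID matched the RefSeq table, in which 66 of the 70 linked symbols occur. No sequence was printed, because no genome was used here. The Y30M site list was used for chromosomes 1 and 2.

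Replicate numbers were the same in both groups. The deviations from the group means of same-numbered libraries correlated over genes at 0.21, 0.28 and 0.60. Differently numbered libraries 1 and 2 correlated as much (0.32 and 0.25), so only replicate 3 stood apart. The numbers passed the fixed rule for pairing (every pair above 0.1), from the data alone, and a fit with the replicate block was an alternative. Others were the overlap rule, score threshold, pseudocount, low filter, scaling, trend, call threshold, gene link and leaving out each library.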

Additional observations from a re-analysis of the deposited data

How the results depend on the processing

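When peaks counted as shared only if each covered 50% of the other, the Y30M-only peaks rose from 375 to 647. Of 312 linked genes 166 were then called, 95 higher and 71 lower, against 86 of 140, 65 higher and 21 lower. The share called higher was thus smaller under this rule, and nearer to the 27.3% of all genes called higher. The predicted share of adenosines was 19.2% and moved to 8.38% at a score of at least 0.6, to 28.6% as a mean over peaks and to 33.6% inside exon blocks, the last being chosen after seeing the data. The share of linked genes with low Y6M expression moved from 31.4% to 42.1% at a mean FPKM under 2. The number of called genes ran from 67 to 81 when 1 library was left out (higher 49 to 64, lower 15 to 22), the lowest without Y6M replicate 1, and was 83 without replicate 3 of both groups. With the replicate block 94 linked genes were called, and no named gene changed its call. Among called linked genes 75.6% were higher, 81.8% with FPKM rescaled to the same sum and 71.8% with a median-of-ratios factor, against 59.0, 64.6 and 54.2% of all called genes.

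The log2 fold changes of 4 genes without a call changed sign. ZBTB11 had a log2 fold change of -0.0899 with the median-of-ratios factor and ran from -0.24 to 0.39 without 1 library, and was -0.06 without replicate 3 of both groups. RCC2 was 0.10 with FPKM rescaled to the same sum, ran from -0.29 to 0.0486 without 1 library and was 0.04 without replicate 3 of both. PECR ran from -0.62 to 0.12 and METTL5 from -0.53 to 0.14 without 1 library. USF3 lost its call without the low filter and with a trend (-0.74 in both), with FPKM rescaled to the same sum (-0.67), and without Y6M replicate 3 (-0.45), any Y30M replicate or replicate 3 of both (-0.49). AP2M1 lost its call with that rescaling (-0.50) and without Y30M replicate 2 (-0.48). The causes were not tested. No peak value has a replicate, the read number behind a peak is unknown, and 199 of the 375 peaks have no gene.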

Other observations

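The study's own peak annotation, where it was held here, and the rows on either side of a peak gave 29 further genes with a symbol to Y30M-only peaks that overlapped no compared row. This link was chosen after seeing the data. Of these genes 14 were called higher in Y30M, 8 lower and 7 were not called, beside 27.3% of all genes called higher and 19.0% called lower. BOLL, an RNA-binding protein needed for meiotic division of male germ cells, had an FPKM of 0.224, 0.210 and 0.380 in Y6M and of 27.0, 28.7 and 57.2 in Y30M (log2 fold change 4.84, SE 0.31, limma adjusted p = 0.000231). It had the peak chr2:55408475-55413985 and no Y6M peak on a compared row. FEV, an ETS transcription factor of serotonergic neurons, had 0.238, 0 and 0 FPKM in Y6M and 43.4, 56.8 and 21.8 in Y30M (log2 fold change 5.18, SE 0.36, limma adjusted p = 0.000301), with a 145 bp peak. LPP, which carried the second longest peak, had 3.58, 3.37 and 7.33 FPKM in Y6M and 21.3, 57.1 and 32.9 in Y30M (log2 fold change 2.68, SE 0.44, limma adjusted p = 0.00536).

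Other genes of this kind fell. CXADR, a tight junction receptor, had 22.9, 18.1 and 36.4 FPKM in Y6M and 2.13, 1.36 and 1.96 in Y30M (log2 fold change -3.20, SE 0.28, limma adjusted p = 0.000596), with the 3' UTR peak chr1:18044543-18071094. BIN1, a membrane curvature protein, had 61.0, 52.5 and 40.8 FPKM in Y6M and 4.76, 5.86 and 4.24 in Y30M (log2 fold change -3.13, SE 0.19, limma adjusted p = 0.000212). NFE2L2, the regulator of the antioxidant response, had 42.4, 46.2 and 79.7 FPKM in Y6M and 11.0, 4.59 and 15.4 in Y30M (log2 fold change -2.41, SE 0.47, limma adjusted p = 0.0104). None of these 3 genes had a Y6M peak on a compared row. The study's annotation was used for Y30M peaks and not for Y6M peaks. A Y6M peak on these genes or on BOLL that overlapped no compared row would therefore have been missed. Their RNA was more abundant in Y6M, and the reason why no Y6M peak was linked was not tested.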
